A study of Mus musculus with 11 samples.

Results

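The 10 genes described here are used as markers of spermatogonia, the mitotic germ cells at the base of the seminiferous tubule. The genes also serve as markers of the steps by which these cells leave the stem state and enter meiosis. They were chosen by symbol: Zbtb16, Gfra1, Id4, Uchl1 and Nanos3 as stem and progenitor genes, and Kit, Stra8, Sohlh1, Sohlh2 and Dmrt1 as genes of differentiation and meiotic entry. All 10 were found once among the 23074 genes of the count table, and all 10 passed the filter on low counts. RNA came from decapsulated whole testes of 5 wild type and 6 Rfx2-/- mice at postnatal day 21 (P21), on a mixed background of C57BL/6, 129/Sv and FVB/N. The null allele lacks exon 7 of Rfx2, removed by a ubiquitously active Cre, so every cell of an Rfx2-/- testis carries it. A single library was made per mouse.

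Spermatogonial stem cells divide on the basement membrane, and their daughters form chains of undifferentiated progenitors. Retinoic acid then drives these into the differentiating state, in which they gain the KIT receptor, and later, through STRA8, into meiosis. In a juvenile testis the first wave of germ cells advances in near synchrony, so later cell types are added with age and spermatogonia become a smaller part of the tissue. RFX2, the factor missing here, acts later, in meiotic and haploid germ cells.

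Between 26925157 and 29769483 reads were counted per wild type mouse and between 22232097 and 27116903 per Rfx2-/- mouse. Values are CPM, counts scaled to a common library size after TMM, and a floor of 3 counts corresponded to between 0.0852 and 0.139 CPM. The floor covers counting error only. Rfx2, counted over all its exons, had 191 to 472 CPM in wild type and 282 to 324 CPM in Rfx2-/- testis, which does not show whether exon 7 is covered. Each of the lists of Sertoli, Leydig, peritubular myoid, macrophage, pachytene spermatocyte and round spermatid markers was detected, with no marker at 0 in every mouse. The mice differed in the markers of later germ cells. The pachytene spermatocyte score, the mean log2 CPM of 10 markers, was 8.29 and 8.11 in wild type replicates 3 and 5 and between 9.32 and 9.55 in the other 3 wild type mice. In Rfx2-/- mice it lay between 9.42 and 9.80. The round spermatid score, the mean log2 CPM of 12 markers, ranged from -1.45 to 5.07 in wild type and from 1.25 to 5.63 in Rfx2-/- testis.

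In GENCODE M21 on GRCm38 the stem and progenitor genes are Zbtb16 at chr9:48654297-48836222 (ENSMUSG00000066687, minus strand), Gfra1 at chr19:58235604-58455909 (ENSMUSG00000025089, minus strand), Id4 at chr13:48261228-48266026 (ENSMUSG00000021379, plus strand), Uchl1 at chr5:66676091-66687234 (ENSMUSG00000029223, plus strand) and Nanos3 at chr8:84173731-84185217 (ENSMUSG00000056155, minus strand). The others are Kit at chr5:75574916-75656722 (ENSMUSG00000005672, plus strand), Stra8 at chr6:34920163-34939344 (ENSMUSG00000029848, plus strand), Sohlh1 at chr2:25842995-25847248 (ENSMUSG00000059625, minus strand), Sohlh2 at chr3:55182028-55209957 (ENSMUSG00000027794, plus strand) and Dmrt1 at chr19:25505618-25604329 (ENSMUSG00000024837, plus strand).

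Levels of different genes were compared only per length, as RPKM (CPM per kb of merged protein coding exons). Uchl1, which encodes a neuronal and spermatogonial ubiquitin hydrolase, stood highest with 120 ± 30.6 RPKM (SD, n = 5) across wild type mice and 92.3 ± 16.6 RPKM (SD, n = 6) across Rfx2-/- mice. Dmrt1 followed with 47.5 ± 12.96 RPKM (SD, n = 5) and 37.6 ± 4.56 RPKM (SD, n = 6), and its range did not reach that of Uchl1 in either genotype. The next genes were Stra8, Sohlh2, Id4, Sohlh1 and Kit, with wild type means from 36.5 down to 11.4 RPKM. In wild type each gene from Dmrt1 to Kit overlapped its neighbour in this order, so their ranks are not separated by the spread between mice. In Rfx2-/- testis Dmrt1 lay clear of Stra8, and Id4 lay clear of Sohlh1. Zbtb16, at 3.82 ± 1.20 RPKM (SD, n = 5) across wild type mice, was below Kit in both genotypes without overlap. Nanos3 and Gfra1 were lowest, at 1.91 ± 0.282 and 1.34 ± 0.470 RPKM (SD, n = 5) across wild type mice, and their ranges overlapped in both genotypes. The plot of levels per length shows Uchl1 above the block from Dmrt1 to Kit, Zbtb16 below that block, and Nanos3 and Gfra1 lowest.

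**Figure D1:**
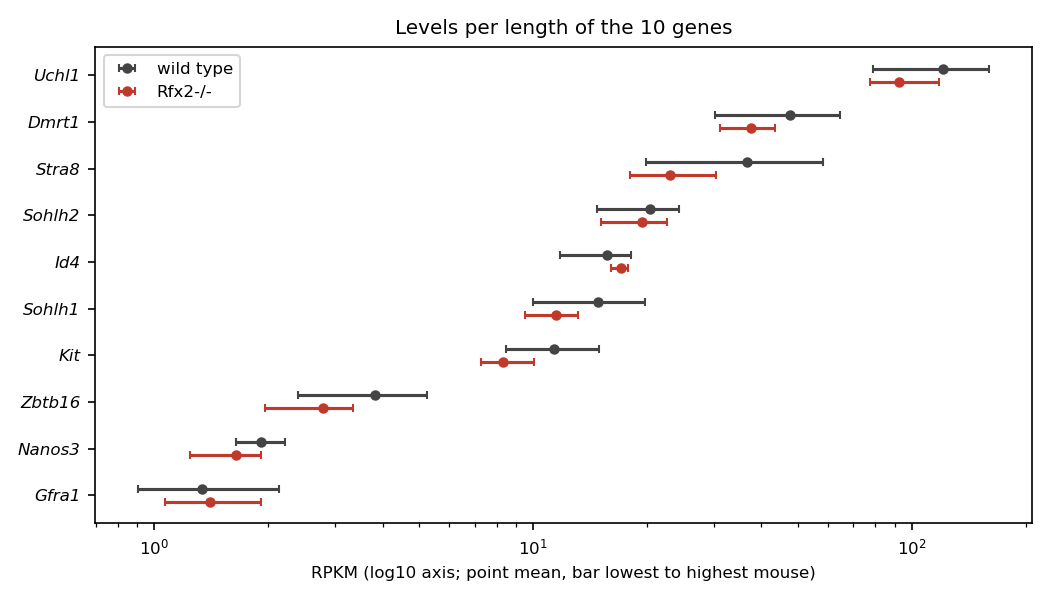
Level of each gene as RPKM on a log10 axis, with wild type in grey (n = 5) and Rfx2-/- in red (n = 6); points are means and bars run from the lowest to the highest mouse. Uchl1 stands highest at a wild type mean of 120 RPKM and Gfra1 lowest at 1.34 RPKM.

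The first comparison asked whether the mRNAs of spermatogonia differ between the genotypes at P21, when the first wave reaches the round spermatid stage. None of the 10 genes was called lower or higher in Rfx2-/- testis by edgeR's quasi-likelihood test, with p-values adjusted by Benjamini-Hochberg over all 15745 tested genes and a limit of 0.01. Adjusted p-values lay between 0.0723 for Kit and 0.836 for Gfra1. Over all tested genes the test called 2.67%, with 1.94% lower and 0.730% higher (the DESeq2 Wald test called 911 genes lower and 1146 higher). At an unadjusted p under 0.05 there were 4 genes of the 10, against 41.8% of all tested genes. DESeq2 and limma voom also called none of the 10. The CPM ranges of the genotypes overlapped for each of the 10 genes. They did not overlap for 11.7% of all tested genes, and a count of 0 in 10 is near that share. The log2 fold change (Rfx2-/- over wild type) was negative for 8 genes and positive for 2, with a median of -0.35 beside -0.05 for all tested genes. Since the RNA is from whole testis, fewer cells of a type and less RNA per cell cannot be told apart in any of these values.

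Among the stem and progenitor genes, Zbtb16 encodes PLZF, a zinc finger repressor that holds spermatogonia in the undifferentiated state. It had 12.6, 17.4, 27.6, 17.4 and 25.9 CPM across wild type replicates 1 to 5. In Rfx2-/- testis the lowest, median and highest values were 10.4, 14.9 and 17.6 CPM. Only wild type replicates 3 and 5 lay above all Rfx2-/- mice, and the other 3 wild type mice lay within their range. The log2 fold change was -0.46 (standard error 0.20, 95% interval -0.90 to -0.0090, adjusted p = 0.114 by edgeR).

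Uchl1 had 92.8, 128, 162, 137 and 188 CPM across wild type replicates 1 to 5, and 91.2, 101 and 138 CPM as lowest, median and highest in Rfx2-/- testis. Replicates 3 and 5 were again the highest, and replicate 1 was level with the lowest Rfx2-/- mice (log2 fold change -0.38, 95% interval -0.77 to 0.00052, adjusted p = 0.120 by edgeR). With wild type replicate 5 left out it was -0.25, and with wild type replicate 1 left out it was -0.50.

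Gfra1 encodes the co-receptor for GDNF, the factor with which Sertoli cells sustain stem cells. It had 11.5, 6.96, 5.91, 4.87 and 6.85 CPM across wild type replicates 1 to 5, and 5.74, 7.02 and 10.3 CPM as lowest, median and highest in Rfx2-/- testis. Here wild type replicate 1 was the highest mouse of all, and the other 4 lay at or below the Rfx2-/- median (log2 fold change 0.07, 95% interval -0.44 to 0.58, adjusted p = 0.836 by edgeR). With wild type replicate 1 left out it was 0.30, and with wild type replicate 4 left out it was -0.046.

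Id4, an inhibitor of basic helix-loop-helix factors that is found in stem cells, had 68.0, 69.8, 45.2, 67.8 and 49.6 CPM across wild type replicates 1 to 5. In Rfx2-/- testis its values were 61.8, 65.4 and 68.6 CPM as lowest, median and highest. Replicates 3 and 5, which were high for Zbtb16 and Uchl1, were the lowest mice for Id4, and the other 3 wild type mice, between 67.8 and 69.8 CPM, lay at or just above the upper end of the Rfx2-/- range (log2 fold change 0.12, 95% interval -0.13 to 0.38, adjusted p = 0.421 by edgeR). Without wild type replicate 3 the fold change was 0.047 on the log2 scale, and without wild type replicate 2 it was 0.18. Over all mice the log2 CPM of Id4 ran against that of Zbtb16, Kit and Stra8 (Pearson's r = -0.77, -0.85 and -0.81). Of the listed genes only Gfra1 had a positive r with it (0.27). Which testis cells the Id4 RNA came from was not tested.

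Nanos3, an RNA-binding protein of undifferentiated spermatogonia, was counted with only 22 to 57 reads per mouse. Its levels were 1.398 ± 0.206 CPM (SD, n = 5) across wild type mice and 1.20 ± 0.213 CPM (SD, n = 6) across Rfx2-/- mice. The log2 fold change was -0.22, with a 95% interval from -0.58 to 0.14 (adjusted p = 0.308 by edgeR), so a fall of up to 0.58 or a rise of up to 0.14 on the log2 scale lies within its error.

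**Figure D2:**
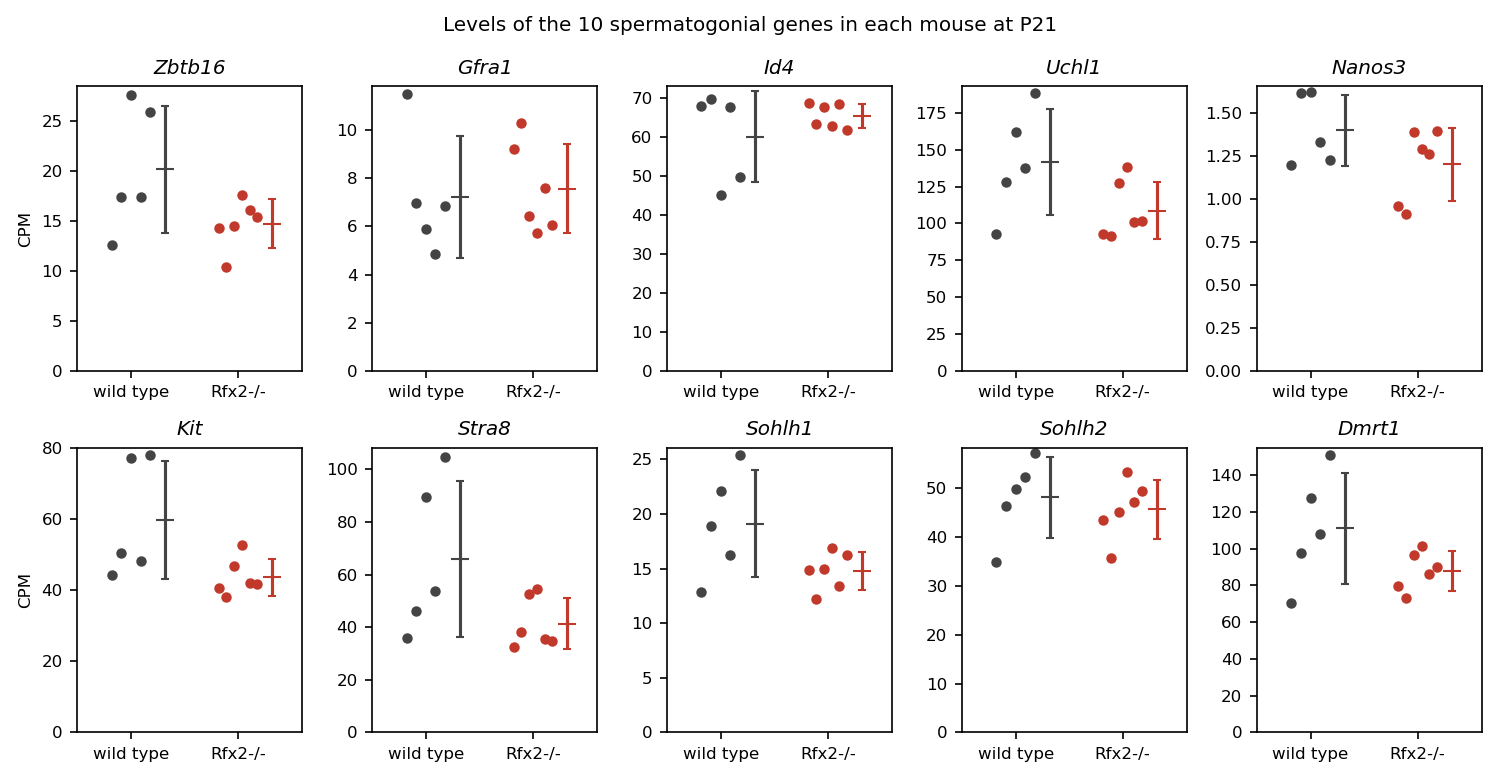
CPM of the 10 genes in each mouse (points, in order of replicate number), with mean and SD beside them, for wild type (grey, n = 5) and Rfx2-/- (red, n = 6). Wild type replicates 3 and 5 are the 2 highest mice for Zbtb16, Uchl1, Kit, Stra8, Sohlh1 and Dmrt1 and the lowest for Id4, and the genotypes overlap in every panel.

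Among the genes of differentiation, the promoter sequences of Stra8 and Sohlh1 are shown because both genes fell as round spermatid markers rose and both hold a nuclear receptor half-site, the kind of element that retinoic acid receptors read. The sequences are from RefSeq on GRCm38.p6 and run from 250 bases before to 50 bases after the annotated start. Capitals mark AGGTCA (nuclear receptor half-site), CACGTG (E-box, a site for basic helix-loop-helix factors such as SOHLH1 and SOHLH2) and ACATTGT (the core bound by DMRT1, seen here as ACAATGT on the other strand), each searched on both strands.
Stra8, chr6:34920698-34920997, plus strand: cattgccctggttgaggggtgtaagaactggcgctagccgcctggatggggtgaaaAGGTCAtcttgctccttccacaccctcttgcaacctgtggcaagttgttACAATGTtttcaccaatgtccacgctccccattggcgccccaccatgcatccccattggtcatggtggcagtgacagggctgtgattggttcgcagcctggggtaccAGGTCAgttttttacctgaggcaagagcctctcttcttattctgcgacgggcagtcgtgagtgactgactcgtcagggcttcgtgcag
Sohlh1, chr2:25847199-25847498, minus strand: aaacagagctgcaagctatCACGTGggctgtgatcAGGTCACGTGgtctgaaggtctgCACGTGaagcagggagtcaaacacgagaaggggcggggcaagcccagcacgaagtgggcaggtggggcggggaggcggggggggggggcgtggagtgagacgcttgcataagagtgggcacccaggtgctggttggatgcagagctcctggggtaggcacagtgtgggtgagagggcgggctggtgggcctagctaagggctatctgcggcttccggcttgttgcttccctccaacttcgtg
Stra8 held AGGTCA beginning 194 and 38 bases before the start and the DMRT1 core 145 bases before it. Sohlh1 held CACGTG beginning 231, 211 and 192 bases before the start, and AGGTCA 215 bases before it, which shares bases with the middle E-box. Of all 32851 promoters in the table, 16.3% held AGGTCA, 7.15% CACGTG and 2.96% the DMRT1 core. Promoters were listed for 8 of the 10 genes. Apart from these 2 genes, none of the 8 held any of the 3 motifs. GTTGCC, a half-site of the X-box that RFX factors bind, was searched as well and was found in 12.5% of all promoters and in 1 of the 8 genes, Id4, 155 bases before its start. A match is a run of letters, not a shown binding site.

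Stra8, the retinoic acid induced gate to meiosis, had 35.7, 46.1, 89.3, 53.8 and 105 CPM across wild type replicates 1 to 5. In Rfx2-/- testis it had 32.4, 36.8 and 54.6 CPM as lowest, median and highest. It had the lowest fitted log2 fold change of the 10, -0.67 (standard error 0.27, 95% interval -1.28 to -0.070, adjusted p = 0.0930 by edgeR). Replicates 3 and 5 alone exceeded all Rfx2-/- mice. Without replicate 5 the log2 fold change was -0.43, and without replicate 1 it was -0.83.

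Kit encodes the receptor for stem cell factor, which marks differentiating spermatogonia and is made by Leydig cells as well. It had 44.4, 50.5, 77.2, 48.2 and 78.2 CPM across wild type replicates 1 to 5, and 38.1, 41.9 and 52.8 CPM as lowest, median and highest in Rfx2-/- testis. Its adjusted p was the lowest of the 10 (log2 fold change -0.45, standard error 0.16, 95% interval -0.81 to -0.092, adjusted p = 0.0723 by edgeR). Again only replicates 3 and 5 lay above the Rfx2-/- range.

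Sohlh1 and Sohlh2 encode paired basic helix-loop-helix factors of early differentiation. Sohlh1 had 12.9, 18.9, 22.1, 16.3 and 25.4 CPM across wild type replicates 1 to 5, and 12.2, 14.9 and 16.9 CPM as lowest, median and highest in Rfx2-/- testis. For Sohlh1 replicate 2 as well as 3 and 5 lay above all Rfx2-/- mice (log2 fold change -0.37, 95% interval -0.73 to -0.014, adjusted p = 0.110 by edgeR). The log2 fold change was -0.23 without replicate 5 and -0.48 without replicate 1. Sohlh2 had 48.1 ± 8.37 CPM (SD, n = 5) across wild type mice and 45.6 ± 6.02 CPM (SD, n = 6) across Rfx2-/- mice (log2 fold change -0.075, 95% interval -0.36 to 0.21, adjusted p = 0.667 by edgeR). The difference between the fold changes of the pair was not tested.

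Dmrt1, a DM domain regulator that keeps spermatogonia from early meiosis and is also made by Sertoli cells, had 70.7, 97.9, 127, 108 and 151 CPM across wild type replicates 1 to 5. In Rfx2-/- testis the lowest, median and highest values were 73.0, 88.1 and 102 CPM. Replicates 3, 4 and 5 lay above the Rfx2-/- range and replicate 1 below it (log2 fold change -0.34, 95% interval -0.71 to 0.029, adjusted p = 0.144 by edgeR). With wild type replicate 5 left out it was -0.19, and with wild type replicate 1 left out it was -0.46.

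Wild type replicates 3 and 5, the highest mice for 6 of the 10 genes, were also the mice with the lowest pachytene scores. With wild type replicates 3 and 5 left out together, an alternative chosen after seeing the data, the median log2 fold change of the 10 genes was -0.10, and those of Zbtb16, Kit and Stra8 were -0.092, -0.12 and -0.12. Leaving out the highest wild type mice raises the fold changes of those 6 genes whatever the cause, so this fit cannot speak to cell composition. With the pachytene score as a covariate the median was 0.031. This score was itself tied to genotype, at 8.11 to 9.55 in wild type and 9.42 to 9.80 in Rfx2-/- mice. Adjusting for it can remove genotype difference whatever the cause, so this fit cannot speak to cell composition either. None of the 10 genes was called in either fit. Summed over the list, pachytene markers had 4831 to 11292 CPM in wild type and 9984 to 12887 CPM in Rfx2-/- testis. None of the 10 pachytene markers was called between the genotypes by edgeR, and their median log2 fold change was 0.51. Sertoli markers summed to 3236 to 4753 CPM in wild type and 3139 to 3674 CPM in Rfx2-/- testis, with none of 12 called and a median of -0.33. The part of cell composition in the genotype values was not tested.

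The second comparison asked whether the genes moved with the progress of the first wave among mice of the same genotype. The slope on the round spermatid score was fitted with genotype as a covariate over all tested genes. It is the log2 change in CPM for each unit of the score, that is for each doubling of the geometric mean of the spermatid markers. Of the 10 genes, 7 fell as the score rose and 1 rose (edgeR, adjusted p of at most 0.01), whereas 15.2% of all tested genes fell and 19.4% rose. The median slope was -0.11 for the 10 genes and 0.0040 for all tested genes. The score comes from the same libraries as the genes, and CPM are shares, so a rise of one cell type lowers the share of others.

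All 5 genes of differentiation and meiotic entry fell with the score. Stra8 had the steepest slope, -0.20 (standard error 0.032, adjusted p = 0.00048 by edgeR), and it went from 105 CPM in the wild type mouse with the lowest score to 35.7 CPM in the one with the highest. Dmrt1 fell by 0.13 per unit (standard error 0.015, adjusted p = 4.74e-05). Kit had a slope of -0.11 and Sohlh1 of -0.11 (adjusted p = 0.0025 and 0.0056 by edgeR). Sohlh2, which differed least between genotypes in this group, had a slope of -0.092 (standard error 0.018, adjusted p = 0.0019 by edgeR).

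**Figure D3:**
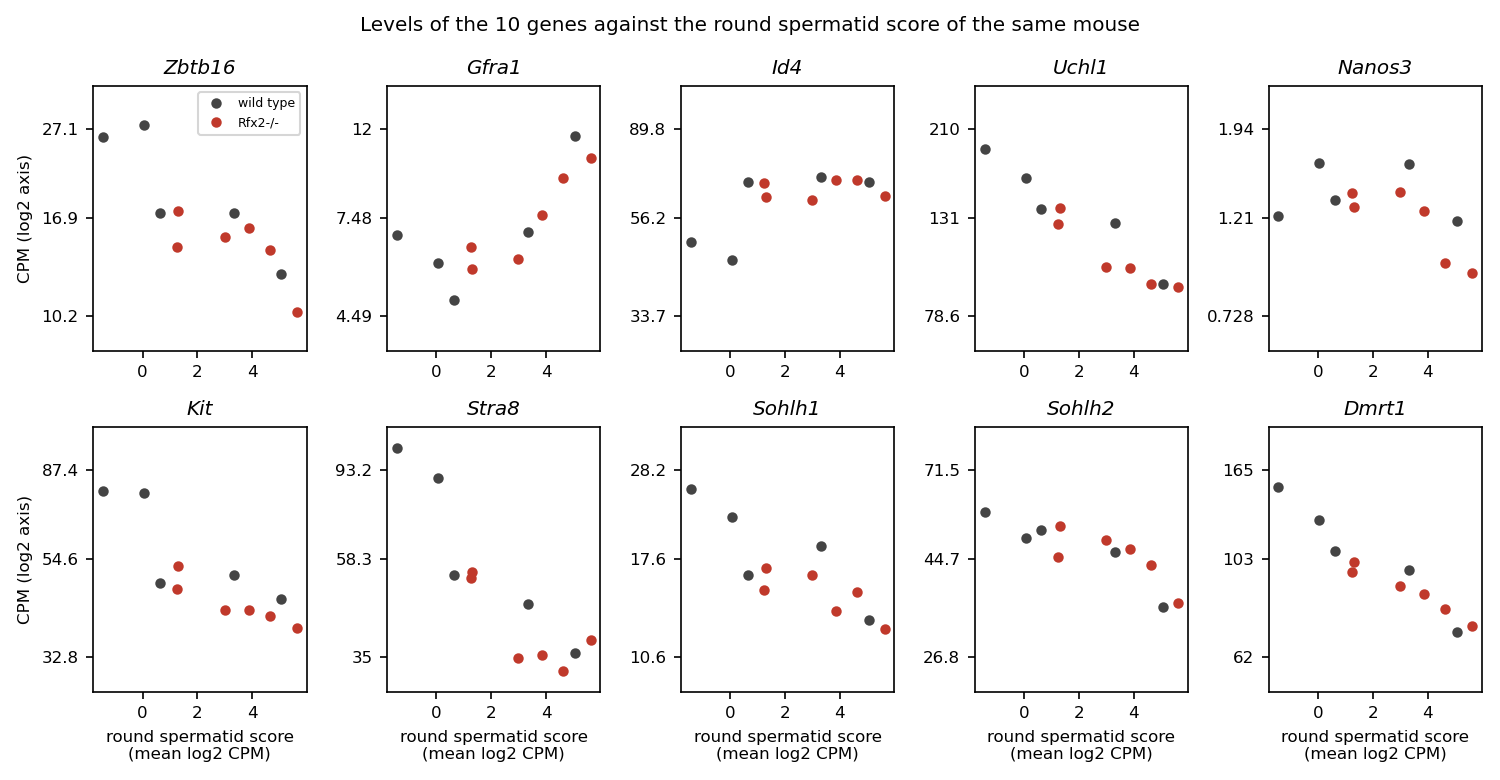
CPM of each gene (log2 axis, a 4-fold span in every panel) against the round spermatid score of the same mouse, with wild type in grey (n = 5) and Rfx2-/- in red (n = 6). Stra8, Dmrt1 and Uchl1 are highest in the 2 mice with the lowest scores, Gfra1 is highest in the mice with the highest scores, and Id4 is low only in wild type replicates 3 and 5.

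The stem and progenitor genes divided. Zbtb16 and Uchl1 fell with the score, both with a slope of -0.14 (standard error 0.031 and 0.015, adjusted p = 0.0033 and 3.82e-05 by edgeR). Gfra1 rose by 0.14 per unit (standard error 0.035, 95% interval 0.066 to 0.22, adjusted p = 0.0057 by edgeR). In Rfx2-/- mice it had 10.3 and 9.22 CPM in replicates 7 and 6, which had the highest scores, and 6.43 and 5.74 CPM in replicates 8 and 9, which had the lowest. The 3 wild type mice with the lowest scores, replicates 5, 3 and 4 in rising order, had 6.85, 5.91 and 4.87 CPM, against the direction of the fitted slope. The call for Gfra1 was lost with total counts as library sizes and without wild type replicate 1 or 3 or Rfx2-/- replicate 6, 7, 8 or 9, with positive slopes throughout. Id4 had a slope of 0.053 (95% interval 0.00068 to 0.11, adjusted p = 0.0817) and Nanos3 of -0.044 (95% interval -0.14 to 0.046, adjusted p = 0.387), and neither passed. On the pachytene score in place of the round spermatid score, Id4 was called with a slope of 0.41, Gfra1 was not called with 0.40 (adjusted p = 0.181 by edgeR), and Sohlh2 was not called with -0.32 (adjusted p = 0.0473).

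**Figure D4:**
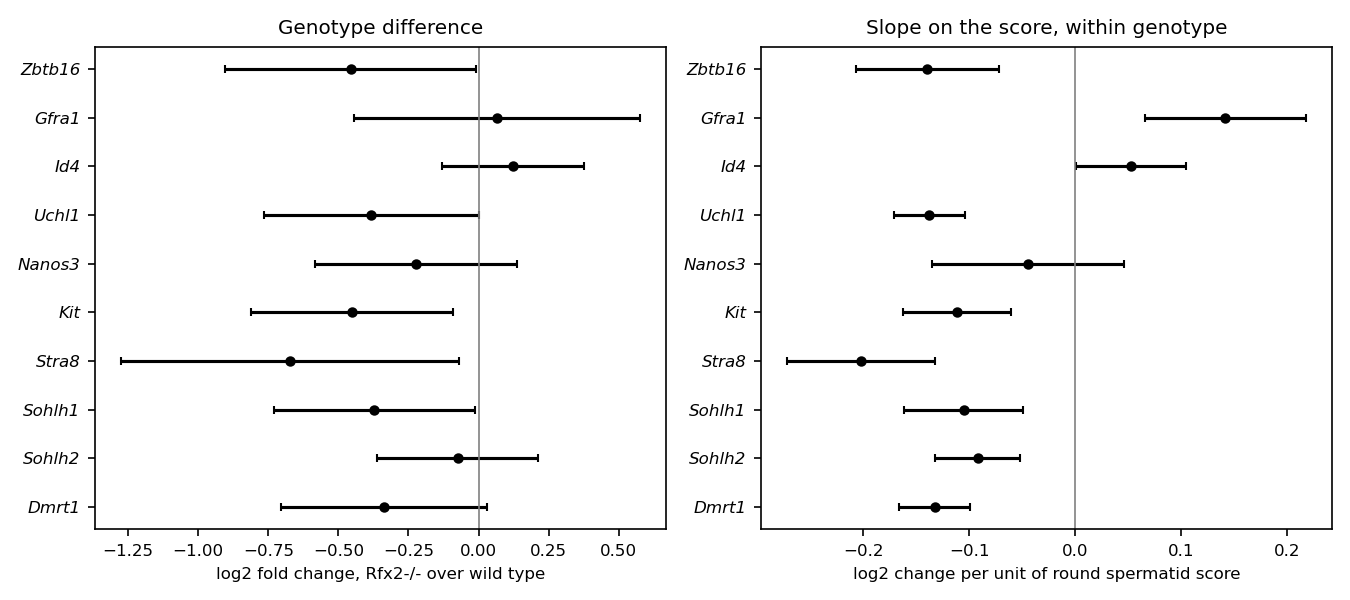
Left, log2 fold change (Rfx2-/- over wild type) and right, slope on the round spermatid score within genotype, each as the edgeR estimate with its unadjusted 95% interval over 11 mice. The genotype estimates run from -0.67 for Stra8 to 0.12 for Id4. The genotype intervals of Kit, Stra8 and, narrowly, Zbtb16 and Sohlh1 lie below 0, and the others cross it. No genotype difference was called after adjustment. The slope intervals of 7 genes lie below 0, those of Gfra1 and, narrowly, Id4 above it, and that of Nanos3 across it.

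Single mice bore on the number of falling genes. It was 7 with all mice, 3 without wild type replicate 1, the wild type mouse with the highest score, and 4 without wild type replicate 5, the one with the lowest. Uchl1, Stra8 and Dmrt1 were called falling in each of the 11 fits that left out 1 mouse. For Sohlh1 the call was lost in 5 of these fits, for Zbtb16 in 3, for Kit in 2 and for Sohlh2 in 1. With a slope fitted for each genotype, chosen after seeing the data, each of the 10 genes had a slope of the same sign in both. In wild type mice 7 genes were called, all of them falling, where 11.2% of all tested genes fell and 19.1% rose. In Rfx2-/- mice, where 0.641% of all tested genes fell and 6.38% rose, 1 was called, Uchl1, at -0.13 (adjusted p = 0.0064 by edgeR) against -0.14 in wild type. The test of the difference between the slopes called none of the 10 genes and 0.0127% of all tested genes. At an unadjusted p under 0.05 it found 0 of the 10 genes and 8.71% of all tested genes (lowest p of the 10 genes 0.0855 by edgeR).

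Some markers of somatic cells fell with the score. Of 12 Sertoli markers 6 fell and none rose, of 5 peritubular myoid markers 2 fell, and of 6 macrophage markers none passed. Of 10 pachytene markers 6 rose. The part of Sertoli cell RNA in the slope of Dmrt1, and of Leydig cell RNA in that of Kit, was not tested; 1 of 8 Leydig markers fell with the score, and their median slope was 0.093.

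Of 20 tested genes of undifferentiated spermatogonia, 8 fell with the score and none rose, and 1 was called between the genotypes. Nanos2 and Pax7 did not pass the filter. Ret, the signalling receptor with which GFRA1 pairs, fell by 0.11 per unit (standard error 0.029, adjusted p = 0.0066 by edgeR). That call was lost without wild type replicate 1, 2 or 5 or Rfx2-/- replicate 6, 7, 9, 10 or 11 (8 of 11 fits), at adjusted p up to 0.0279, and with wild type replicates 3 and 5 left out. Gdnf, their ligand from Sertoli cells, had a slope of -0.15 (adjusted p = 0.0070 by edgeR). It was not called without wild type replicate 1, 2, 3 or 5 or Rfx2-/- replicate 7 or 9 (6 of 11 fits), and the slope was -0.087 (adjusted p = 0.148) with wild type replicates 3 and 5 left out. Etv5, a target of GDNF signalling, had a slope of 0.049 (adjusted p = 0.0404). The gene called between genotypes was Bcl6b, another target of GDNF signalling, with 5.22 ± 0.596 CPM (SD, n = 5) across wild type mice and 3.20 ± 0.462 CPM (SD, n = 6) across Rfx2-/- mice. Its ranges did not overlap (log2 fold change -0.70, standard error 0.13, adjusted p = 0.0076 by edgeR), and the log2 fold change was -0.80 with wild type replicates 3 and 5 left out. The call was lost in 9 of the 11 fits that left out 1 mouse, at log2 fold changes between -0.72 and -0.66, and kept without wild type replicate 5 or Rfx2-/- replicate 9.

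Of 10 other genes of differentiating spermatogonia, 6 fell with the score and 1 rose, and none was called between the genotypes. The one that rose was Dmrtb1, a DM domain factor of the passage into meiosis, with 163 to 663 CPM in wild type and 607 to 827 CPM in Rfx2-/- testis (slope 0.21, adjusted p = 0.0083 by edgeR). Its call was kept without wild type replicate 4 and lost in the other 10 fits that left out 1 mouse, with slopes from 0.15 to 0.22 and adjusted p up to 0.0524. On the pachytene score in place of the round spermatid score, Dmrtb1 had a slope of 1.37 (standard error 0.042, adjusted p = 4.79e-09 by edgeR). Dnmt3b, a DNA methyltransferase, had a slope of -0.056 (adjusted p = 0.0164). Among 17 genes of meiotic entry and early prophase, 5 fell and 1 rose with the score, and none was called between the genotypes. Gm4969, the gene of the STRA8 partner MEIOSIN, had a slope of -0.19 (adjusted p = 0.00050 by edgeR), close to that of Stra8, and a log2 fold change of -0.64 (adjusted p = 0.0880). Rec8, a meiotic cohesin, had a slope of 0.20 just past the threshold (adjusted p = 0.0098 by edgeR). It was not called with DESeq2 size factors, with total counts, on the pachytene score (adjusted p = 0.422), or without wild type replicate 1 or 3 or any 1 of the Rfx2-/- mice (8 of 11 fits). Fitted for each genotype, the Rec8 slope was 0.098 in wild type and 0.39 in Rfx2-/- mice (adjusted p = 0.0849 and 0.0012 by edgeR). The difference between these slopes was not called (unadjusted p = 0.0025, adjusted p = 0.205 by edgeR). Kitl, the ligand of KIT, had 104 ± 26.1 CPM (SD, n = 5) across wild type mice and 73.5 ± 9.67 CPM (SD, n = 6) across Rfx2-/- mice (log2 fold change -0.50, adjusted p = 0.0505 by edgeR). Of 7 tested niche ligands 3 fell with the score and none was called between the genotypes.

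The genes whose log2 CPM followed each of the 10 most closely over the 11 mice were found by Pearson's r, given as a description without a test, since all points share the scaling of their library. For Dmrt1 they were Me2 and Lman1 (r = 0.997 and 0.992), for Uchl1 Slc16a1 and Stard7 (0.995 and 0.993), and for Kit Fbxo10 and Idua (both 0.991). For Sohlh1 they were Reep1 and Mmd2 (0.992 and 0.985), for Stra8 Nxf2 and Sgpl1 (0.990 and 0.986), and for Zbtb16 Rasd2 and Rbfox2 (0.986 and 0.985). For Sohlh2 they were Armh3 and Ddost (0.980 and 0.955), for Id4 Hsf2bp and Pknox1 (0.978 and 0.969), and for Gfra1 Slc29a3 (0.959). Nanos3, with the fewest reads, had the lowest values, 0.946 with Tle6 and 0.859 with Chml. None of the 10 genes had another of the 10 among its closest genes.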

How the data were processed

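Testis RNA of 11 mice was made into TruSeq libraries and sequenced as single reads. The processing notes of the authors name STAR 2.4 and featureCounts 1.4.6 on GRCm38. The methods name STAR and featureCounts for the RNA-seq analysis, as the notes do. An earlier section of the methods names Bowtie as the aligner, also for testes of this age. Which aligner made these values was not settled here. According to the methods, reads with more than 1 position were discarded and reads on merged exons of protein coding isoforms were counted. The deposited values are raw counts for 23074 genes, without normalization, and 22293 gene IDs had a GENCODE M21 symbol. Strandedness of the counting is not given in the sources used here. The spans of antisense genes overlap those of Uchl1, Id4 and Gfra1. Overlap of exons was not checked, so whether antisense reads entered these counts is not known.

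Genotypes were compared with edgeR 4.0.16 under R 4.3.3 (filterByExpr by genotype, TMM, glmQLFit and glmQLFTest, Benjamini-Hochberg over 15745 genes, threshold 0.01). Standard errors were taken from the F statistic, and 95% intervals are unadjusted. A second fit tested the slope on a round spermatid score with genotype in the model. Scores are means of log2 CPM with a prior count of 2. RPKM used GENCODE M21 exon lengths, whereas the authors counted on an earlier Ensembl release. Alternatives were size factors of DESeq2 1.42.0 and total counts as library sizes, the DESeq2 Wald test, limma 3.58.1 voom with quality weights, a robust prior, no filter, a mean count of at least 50, an adjusted p of 0.05, an unadjusted p of 0.01, scores as covariates, and each mouse left out. The genes and lists were chosen with earlier results of these data known. Named genes are the 10 members, the genes called in each further list or else its first 2 (cell type lists by count unless called), and the 2 genes closest to each member by r, of which 1 is not reported here. The fits were tested on simulated counts. Libraries of 1 genotype differed by more than sampling noise (lowest mean chi-square per gene 3.94, for which noise alone gives about 1). The methods of the study call the samples biological replicates, each taken here as a mouse; littermates of the same age were preferred, but which samples share a litter is not given in the sources used here. Python 3.11.15 drew the figures.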

Additional observations from a re-analysis of the deposited data

Results flagged for a closer look

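Ret CPM in the Rfx2-/- mice was far from the others in 1 mouse: replicate 9 had 10.2 CPM against 6.28 to 7.61 CPM in the other 5. Etv5 was low in Rfx2-/- replicate 8, with 11.5 CPM against 14.8 to 15.8 CPM in the other 5. Both exceed Dixon's 95% limit for 6 samples. Chance flags about 1 in 20 groups, and 44 groups of mice were examined. Neither value belongs to 1 of the 10 spermatogonial genes.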

How the results depend on the processing

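None of the 10 genes was called between the genotypes under any alternative. The following values are log2 fold changes, and none of these changes of sign passed the threshold. With total counts as library sizes, which moved the median of all genes from -0.05 to -0.22, Gfra1 was -0.095, Id4 -0.023 and Rec8 -0.0077. Voom gave -0.021 for Id4 and 0.077 for Ret. With the round spermatid score as a covariate, Gfra1 was -0.18, Sohlh2 0.097, Ret 0.083 and Rec8 -0.28. With the pachytene score as a covariate the median of the 10 genes was 0.031, with Zbtb16 at 0.068, Gfra1 -0.21, Id4 -0.14, Uchl1 0.030, Kit 0.0090, Stra8 0.11, Sohlh1 0.032, Sohlh2 0.15, Dmrt1 0.091, Ret 0.28, Dnmt3b 0.053, Gm4969 0.085, Rec8 -0.11 and Gdnf 0.27. With wild type replicates 3 and 5 left out, Gfra1 was -0.034, Id4 -0.058, Sohlh2 0.048, Ret 0.16 and Gdnf 0.098. Leaving out single mice gave -0.046 to 0.30 for Gfra1, -0.17 to 0.0088 for Sohlh2 and -0.12 to 0.37 for Rec8. Falling slopes among the 10 genes numbered 3 to 7 when 1 mouse was left out and 4 with wild type replicates 3 and 5 left out. Rising slopes numbered 0 to 1 when 1 mouse was left out and 0 with total counts. In the other lists, called genes were 3 lower and 0 higher; they were 8 and 2 with the DESeq2 Wald test, 10 and 1 at an adjusted p of 0.05, 3 and 1 with wild type replicates 3 and 5 left out, and 1 to 3 lower when 1 mouse was left out. Over all tested genes, 305 were called lower and 115 higher; these were 434 and 97 with total counts, 911 and 1146 with the DESeq2 Wald test, 682 and 367 with voom, 676 and 266 with the round spermatid score and 756 and 160 with the pachytene score as a covariate, and 184 to 393 and 45 to 192 when 1 mouse was left out. The cause of these changes was not tested. No paired analysis was possible because which samples share a litter is not given in the sources used here. Depth limits Nanos3 most, with at most 57 reads per mouse.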

Other observations

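Among the listed genes outside the spermatogonial lists, 2 were called between the genotypes. With Bcl6b that made 3 of the 118 tested genes in all lists beside the 10 spermatogonial genes. This share is near the 2.67% called over all tested genes. Aldh1a1, a Sertoli cell enzyme that makes retinoic acid, had 589 ± 57.7 CPM (SD, n = 5) across wild type mice and 413 ± 23.2 CPM (SD, n = 6) across Rfx2-/- mice (log2 fold change -0.51, standard error 0.078, adjusted p = 0.0027 by edgeR). It was 1 of 11 genes of retinoic acid synthesis, reception and breakdown, of which no other was called. Aldh1a2, the germ cell enzyme of the same step, had 198 ± 22.2 CPM (SD, n = 5) across wild type mice and 223 ± 9.99 CPM (SD, n = 6) across Rfx2-/- mice (log2 fold change 0.17, adjusted p = 0.113 by edgeR). Hsd3b1, a steroidogenic enzyme of Leydig cells, had 91.2 ± 14.4 CPM (SD, n = 5) across wild type mice and 50.2 ± 6.23 CPM (SD, n = 6) across Rfx2-/- mice (log2 fold change -0.86, standard error 0.12, adjusted p = 0.0013 by edgeR), and it was the 1 Leydig marker of 8 called. Of the 8 Leydig markers 7 had a negative log2 fold change and 1 a positive, with a median of -0.54. Ranges did not overlap for 3 of the 8, beside 11.7% of all tested genes. Besides Hsd3b1 these were Lhcgr (log2 fold change -1.12, adjusted p = 0.0102 by edgeR) and Hsd17b3 (-0.94, adjusted p = 0.0287). The ranges of Aldh1a1 and Hsd3b1 did not overlap between the genotypes. With wild type replicates 3 and 5 left out, their log2 fold changes were -0.41 and -0.71. The call of Aldh1a1 was lost without Rfx2-/- replicate 6 or 10, with log2 fold changes of -0.50 and -0.49.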
